A study of Mus musculus with 4 samples.

Results

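The 9 enzymes and transporters described here make glucose in the kidney or feed fructose and glycerate carbon into the same route. They are Pck1, Pck2, G6pc, Fbp1, Fbp2, Pcx, Khk, Slc37a4 and Glyctk, chosen by gene name, and each name matched 1 row among the 54078 features of the expression table. RNA-sequencing was performed on kidneys of male mice at day 3 after bilateral ischemia-reperfusion, in which both kidneys were clamped for 30 min (bI/R 3D). The 2 WT libraries came from Apela flox/flox littermates without Cre, and the 2 KO libraries from Apela-Ksp KO mice. In the latter, Cre under the Ksp-cadherin promoter, which is active in renal tubular epithelial cells, deletes Apela, the gene for the peptide elabela. Every mouse was injured, so neither group holds an uninjured kidney. Each library is a pool of RNA from 3 mice, and n = 2 counts pools. The mice were adult and age-matched. The labels give a mixed C57BL/6 x 129S4/SvJae strain, whereas the study's methods give C57BL/6.

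Each library held 16045724 to 16927742 reads on genes, and 0.00% of the 15414 tested genes differed between KO and WT at an adjusted p under 0.05 (limma, Benjamini-Hochberg). In all, 974 genes (6.32%) reached an unadjusted p under 0.05, and weighting the recovered reads with voom gave 0 and 970 genes. The level of the deleted gene, Apela, was 5.27 and 4.57 FPKM in WT pools 1 and 2, and 0.536 and 0.245 FPKM in KO pools 1 and 2. Its log2 fold change was -2.62 (unadjusted p = 0.00013, adjusted p = 0.466, limma), so even the deleted gene did not pass the threshold. A gene that did not pass can therefore still differ between the groups. The description of the series also names adipose tissue as the source. Proximal tubule markers were abundant in all pools, with Slc34a1 between 365 and 898 FPKM and Slc27a2 between 457 and 616 FPKM. Of 5 adipose genes, Ucp1 was listed at 0 in all pools, and Adipoq reached at most 0.268, Lep 0.0184 and Plin1 0.347 FPKM. Cidec was higher, at 1.37 and 0.282 FPKM in WT pools 1 and 2, and 7.92 and 2.79 FPKM in KO pools 1 and 2. WT pool 2 stood apart from the other pools in several gene groups, with a summed level of 5 macrophage markers of 242 FPKM against 94.6 to 115 FPKM. Other pools stood apart elsewhere, as the summed level of 10 proximal tubule markers was 1734.5 FPKM in KO pool 1 against 2225 to 2942 FPKM. Values of the 9 genes are therefore given with and without WT pool 2, and for some genes without other pools.

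Gluconeogenesis rebuilds glucose from lactate, glutamine and glycerol, and the proximal tubule is the main site of it outside the liver. It bypasses the irreversible steps of glycolysis with dedicated enzymes: pyruvate carboxylase and phosphoenolpyruvate carboxykinase at the start, fructose-1,6-bisphosphatase in the middle, and glucose-6-phosphatase in the endoplasmic reticulum at the end. The proximal tubule also takes up fructose, which ketohexokinase phosphorylates on its way to triose carbon. Cyclic AMP, glucocorticoids, acidosis and fasting are known to raise this programme, and insulin lowers it.

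The RefSeq promoter windows of 4 of the genes, from 250 bases before to 50 bases after the annotated start (GRCm38.p6), are shown. All 4 genes were lowest in the same library, WT pool 2, but so were Fbp1, Fbp2 and Slc37a4. That pool was also the lowest library for 30.7% of all tested genes. Being lowest there thus does not set the 4 genes apart, and a link between motif matches and this pattern was not tested. Pck1 had the highest level and the widest range, G6pc encodes the last enzyme of the route, and Pcx had the pattern nearest to that of Khk. Capitals mark matches to any of 6 motifs, searched on both strands. The core of the cyclic AMP response element was read as ACGTCA. The HNF1 core was read as GTTAAT. The HNF4 core was read as AGTCCA. The E-box was read as CACGTG. The core of the forkhead insulin response element was read as TGTTTTG. The TATA box was read as TATAAA. The windows are chr2:173152823-173153122 for Pck1, chr11:101367466-101367765 for G6pc, chr5:30921309-30921608 for Khk and chr19:4510222-4510521 for Pcx, all on the plus strand.
Pck1 promoter: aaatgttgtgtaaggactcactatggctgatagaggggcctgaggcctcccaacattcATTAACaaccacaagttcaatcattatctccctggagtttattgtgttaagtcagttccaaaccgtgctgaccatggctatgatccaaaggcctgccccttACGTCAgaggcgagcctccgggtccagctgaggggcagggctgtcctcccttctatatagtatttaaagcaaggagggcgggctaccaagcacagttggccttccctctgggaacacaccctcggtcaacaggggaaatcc
G6pc promoter: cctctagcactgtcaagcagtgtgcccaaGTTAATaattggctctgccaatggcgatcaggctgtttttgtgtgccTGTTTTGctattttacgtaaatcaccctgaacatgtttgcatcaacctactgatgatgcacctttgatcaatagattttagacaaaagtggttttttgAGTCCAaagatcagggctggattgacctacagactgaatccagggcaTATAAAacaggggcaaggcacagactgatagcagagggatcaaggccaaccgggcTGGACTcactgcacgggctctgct
Khk promoter: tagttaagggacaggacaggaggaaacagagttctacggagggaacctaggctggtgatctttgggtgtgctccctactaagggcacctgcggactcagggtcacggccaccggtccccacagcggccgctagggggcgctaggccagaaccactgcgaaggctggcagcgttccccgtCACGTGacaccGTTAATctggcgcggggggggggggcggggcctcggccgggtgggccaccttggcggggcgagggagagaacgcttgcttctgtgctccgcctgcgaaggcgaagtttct
Pcx promoter: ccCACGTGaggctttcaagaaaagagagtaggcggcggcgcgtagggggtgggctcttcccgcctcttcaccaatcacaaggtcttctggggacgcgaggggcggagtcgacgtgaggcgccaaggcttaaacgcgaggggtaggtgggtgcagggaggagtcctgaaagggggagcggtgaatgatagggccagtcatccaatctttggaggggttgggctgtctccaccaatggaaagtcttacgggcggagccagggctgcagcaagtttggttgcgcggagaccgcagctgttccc

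The Pck1 window held the cyclic AMP response element core 91 bases before the start and the HNF1 core, on the opposite strand, 192 bases before it. G6pc held the most matches, with the HNF1 core at 221, the forkhead core at 174, the HNF4 core at 76 and the TATA box at 29 bases before the start, and another HNF4 core, on the opposite strand, after it. The Khk window held the E-box at 71 and the HNF1 core at 60 bases before the start, and the Pcx window held the E-box at 248 bases before it. Over all 9 genes, the HNF1 core was found in 4 windows, the HNF4 core, the E-box and the forkhead core in 3 each, the cyclic AMP core in 2 and the TATA box in 1. Of 32851 promoter windows of this length, 7.10% held the HNF1 core, 14.1% the HNF4 core, 7.15% the E-box, 6.28% the forkhead core, 7.51% the cyclic AMP core and 13.6% the TATA box. No match overlapped another in the windows shown. These are matches of letters and not measured binding sites. Positions count from the RefSeq start, which can differ from the gene start in the expression table. It lay inside the listed gene by 155 bases for G6pc, 128 for Khk and 25 for Pck1, and at the gene start for Pcx. Both Khk matches, and the HNF4 cores and TATA box of G6pc, thus lay within the listed gene.

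Levels per length spanned more than 2 orders of magnitude among the 9 genes, and their order was nearly the same in every pool. Pck1 was highest, with a mean of 1515 FPKM over the 4 libraries, and ranked between 14 and 33 among all features of a library. Fbp1 followed with 413, Khk with 164, Pcx with 136, G6pc with 131 and Slc37a4 with 84.3 FPKM. The least abundant were Fbp2 with 22.1, Glyctk with 13.3 and Pck2 with 4.82 FPKM. Neighbours in this order were separated in every library, with 1 exception: Pcx was above G6pc in 2 of the 4 libraries, so these genes did not differ beyond their spread. Khk exceeded Pcx in all 4 libraries, by 1.19 to 1.24 times, although their ranges over the libraries overlap. Of the pair of carboxykinases, the cytosolic form thus dominated, with a Pck1 level 368 and 88.7 times that of Pck2 in the WT pools and 488 and 441 times in the KO pools. The size of these ratios depends on the gene lengths behind the FPKM, 3429 bases for Pck1 and 7806 for Pck2. Their longest coding transcripts have 2661 and 4625 bases. The liver and kidney bisphosphatase Fbp1 exceeded the muscle form Fbp2 26.5 and 19.5 times in WT and 18.9 and 13.6 times in KO pools.

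**Figure D1:**
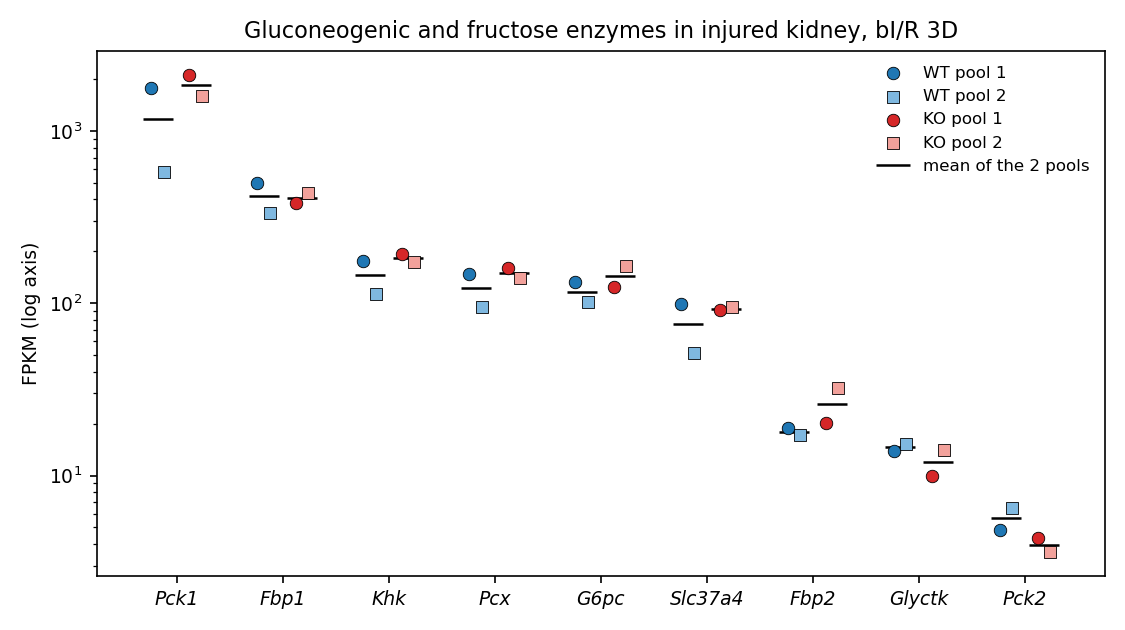
FPKM of the 9 genes (log axis) in the 2 WT pools (blue) and 2 KO pools (red), with horizontal lines at the mean of each group. WT pool 2 was the lowest library for 7 of the 9 genes, and for Pck1 it lay at 575 FPKM against 1594 to 2122 in the other 3 pools.

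Pck1 (ENSMUSG00000027513) encodes cytosolic phosphoenolpyruvate carboxykinase, which turns oxaloacetate into phosphoenolpyruvate and is the classic rate-controlling enzyme of the route. It lies on the plus strand of chromosome 2 of GRCm38 from 173153048 to 173159273, in 10 exons. Its FPKM was 1771 and 575 in WT pools 1 and 2, and 2122 and 1594 in KO pools 1 and 2. WT pool 2 alone was low, and WT pool 1 lay between the KO pools, so the groups overlapped. Mean FPKM was 1173 ± 845 (SD, n = 2) for WT against 1858 ± 373 (SD, n = 2) for KO. On the log2 scale the fold change was 0.86, with a 95% confidence interval from -0.73 to 2.46 (adjusted p = 0.825, limma with Benjamini-Hochberg adjustment). Without WT pool 2 it was 0.05, and without WT pool 1 it was 1.68. Between 33935 and 121696 reads supported each Pck1 value, which was 0.211% of all reads on genes in WT pool 2 and 0.529% to 0.719% in the other pools.

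Pck2 (ENSMUSG00000040618), on the plus strand of chromosome 14 from 55540266 to 55551242, encodes the mitochondrial carboxykinase. Its FPKM was 4.81 and 6.49 in WT pools 1 and 2, and 4.35 and 3.61 in KO pools 1 and 2. Both KO pools lay below both WT pools, and here WT pool 2 was the highest library and not the lowest. Between KO and WT, the log2 fold change of Pck2 was -0.45 (95% confidence interval from -0.94 to 0.05; adjusted p = 0.786, limma), and it was -0.25 without WT pool 2 and -0.65 without WT pool 1. Pck2 was covered by 458 to 871 reads per library.

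Pcx (ENSMUSG00000024892) encodes pyruvate carboxylase, the mitochondrial enzyme that makes oxaloacetate from pyruvate. It lies on the plus strand of chromosome 19 from 4510472 to 4621752, in 21 exons. Its FPKM was 149 and 95.3 in WT pools 1 and 2, and 159.6 and 140.1 in KO pools 1 and 2. WT pool 1 again lay between the KO pools and WT pool 2 below them. Its log2 fold change of 0.33 (95% confidence interval from -0.34 to 1.00; adjusted p = 0.839, limma) was 0.0092 without WT pool 2 and was 0.65 without WT pool 1. Lrfn4, a gene on the opposite strand within the Pcx gene, had 4.92 to 6.45 FPKM, and the strand setting of the counting is not given in the sources used here.

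Fbp1 (ENSMUSG00000069805) and Fbp2 (ENSMUSG00000021456) encode fructose-1,6-bisphosphatases and lie side by side on the minus strand of chromosome 13, Fbp1 from 62864753 to 62888282 and Fbp2 from 62836877 to 62858422. The FPKM of Fbp1 was 500.7 and 333 in WT pools 1 and 2, and 382 and 436 in KO pools 1 and 2. The KO pools fell between the WT pools, and the group means of 417 ± 118 (SD, n = 2) and 409 ± 37.96 (SD, n = 2) gave a log2 fold change of -0.0014 with a 95% confidence interval from -0.70 to 0.70 (adjusted p = 0.999, limma). That of Fbp1 was -0.29 without WT pool 2 and 0.29 without WT pool 1. Fbp2 was 18.9 and 17.1 FPKM in WT pools 1 and 2, and 20.2 and 32.1 FPKM in KO pools 1 and 2. It was the only one of the 9 genes in which the KO pools both exceeded the WT pools, although KO pool 1 lay close to WT pool 1. For Fbp2 the log2 fold change was 0.49 (95% confidence interval from -0.15 to 1.13; adjusted p = 0.797, limma), and it was 0.42 without WT pool 2, 0.16 without KO pool 2 and 0.82 without KO pool 1. The transcripts of the paralogs shared 0 of the 1455 windows of 25 bases in Fbp1. The defining genes of skeletal muscle, where Fbp2 is the main form, were at or near 0, with Ckm and Tnnt3 at no more than 0.0423 FPKM and Myh4 listed at 0, while Acta1 reached 0.984 and Mylpf 1.41 FPKM.

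G6pc (ENSMUSG00000078650) encodes the catalytic subunit of glucose-6-phosphatase, and Slc37a4 (ENSMUSG00000032114) the transporter that brings glucose-6-phosphate into the endoplasmic reticulum for it. G6pc lies on chromosome 11 from 101367561 to 101377903 and Slc37a4 on chromosome 9 from 44396852 to 44402968, both on the plus strand. The FPKM of G6pc was 133 and 101 in WT pools 1 and 2, and 124 and 165 in KO pools 1 and 2. WT pool 1 lay between the KO pools. For G6pc the log2 fold change was 0.30 (95% confidence interval from -0.29 to 0.90; adjusted p = 0.832, limma). It was 0.11 without WT pool 2 and 0.10 without KO pool 2, and 0.50 without WT pool 1 and 0.51 without KO pool 1. Slc37a4 was 99.3 and 51.8 FPKM in WT pools 1 and 2, and 91.3 and 94.8 FPKM in KO pools 1 and 2. The KO pools were close together and both below WT pool 1. Its log2 fold change was 0.37 (95% confidence interval from -0.49 to 1.24; adjusted p = 0.854, limma) with all pools, -0.09 without WT pool 2 and 0.84 without WT pool 1. The transporter was thus the gene with the second widest gap between the WT pools, after Pck1, at 1.92-fold. The ratio of the enzyme to its transporter ranged from 1.33 to 1.95 over the 4 libraries.

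Khk (ENSMUSG00000029162) encodes ketohexokinase, which commits fructose to metabolism, and lies on the plus strand of chromosome 5 from 30921431 to 30931248. Its FPKM was 176 and 113 in WT pools 1 and 2, and 194 and 174 in KO pools 1 and 2. WT pool 1 lay just above KO pool 2, and WT pool 2 below all others. For Khk the log2 fold change was 0.38 (95% confidence interval from -0.29 to 1.05; adjusted p = 0.823, limma), against 0.06 without WT pool 2 and 0.69 without WT pool 1. GENCODE M21 lists 4 protein-coding transcripts of Khk, which these values per gene do not separate. Glyctk (ENSMUSG00000020258) encodes glycerate kinase, which returns glycerate, a product of fructose and serine breakdown, to the triose pool, and lies on the minus strand of chromosome 9 from 106152857 to 106158138. It was 13.9 and 15.2 FPKM in WT pools 1 and 2, and 9.95 and 14.1 FPKM in KO pools 1 and 2. KO pool 1 was low and KO pool 2 lay between the WT pools. For Glyctk the log2 fold change was -0.29 (95% confidence interval from -0.80 to 0.22; adjusted p = 0.823, limma), and it was -0.22 without WT pool 2, -0.04 without KO pool 1 and -0.53 without KO pool 2. An antisense gene that overlaps Glyctk, D030055H07Rik, had 0.127 to 0.169 FPKM.

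**Figure D2:**
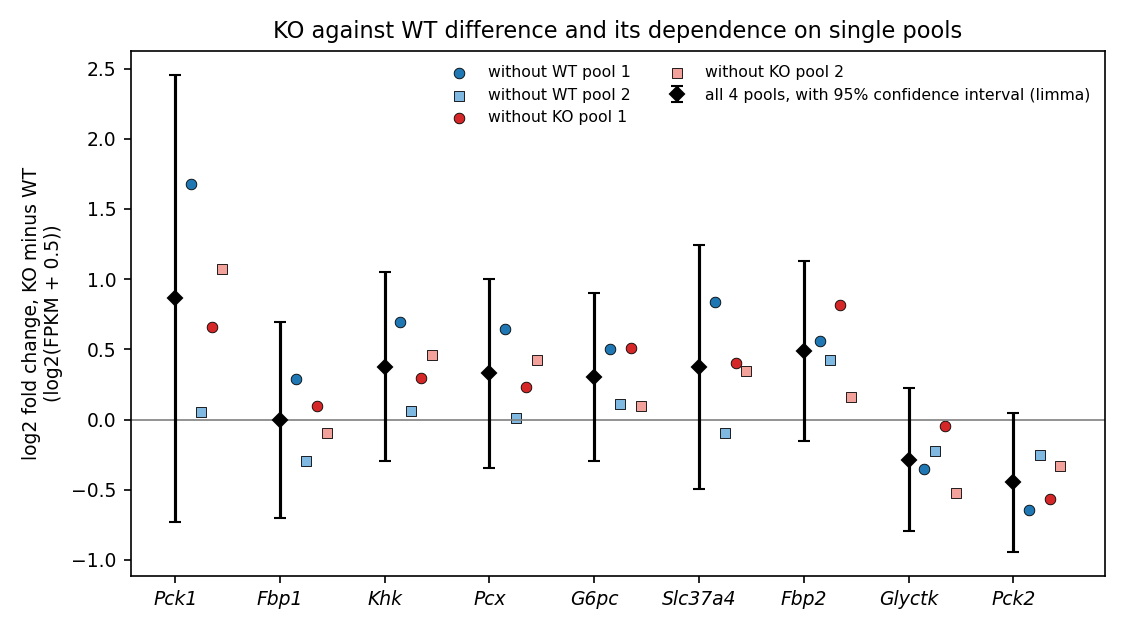
The log2 fold change, KO minus WT on log2(FPKM + 0.5), of the 9 genes with the 95% confidence interval of limma (black), and the same with each pool left out in turn (coloured). Every interval includes 0, and without WT pool 2 Pck1, Khk and Pcx lie between 0.0092 and 0.06.

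None of the 9 genes differed between KO and WT kidneys beyond the spread between pools by the limma test. Of the 9, 0 had an adjusted p under 0.05 and 0 an unadjusted p under 0.05 (limma), against 0.00% and 6.32% of all genes tested. Of the log2 fold changes, 6 were above 0 and 3 below 0, with a median of 0.33 against 0.0071 over all tested genes, of which 7917 of 15414 were above 0. Without WT pool 2 the median of the 9 genes was 0.0092, with 5 above 0 and 4 below, and without WT pool 1 it was 0.56, with 7 above 0 and 2 below. For 1 gene, Fbp2, the KO pools both exceeded the WT pools, and for 1 gene, Pck2, both lay below them, while this held for 19.7% and 18.1% of all tested genes. Without WT pool 2 these were 1 gene and 3 genes, Pck2, Fbp1 and Slc37a4 being below WT pool 1, against 34.3% and 32.0% of all tested genes. With all pools or without WT pool 2, these counts of genes without overlap were not above their backgrounds by as much as 1 gene of 9. Without WT pool 1, in contrast, the KO pools were above WT pool 2 for 7 genes and below it for 2, against 37.7% and 35.9% of all tested genes. In that setting 5 of the 9, Pck1, Pck2, Pcx, Khk and Slc37a4, had an unadjusted p under 0.05 (limma), against 11.2% of all tested genes, and 0 an adjusted p under 0.05. The count at an unadjusted p thus depended on which pools were included. For a single gene, exact permutation of 4 pools has 0.333 as its smallest two-sided p. The intervals allow a Pck1 change in either direction, and with 2 pools a group such a difference was not detectable against the spread between the WT pools.

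For most of the 9 genes the WT pools differed more from each other than the groups did. For 6 of the 9 genes the gap between WT pools 1 and 2 on the log2 scale exceeded the difference between KO and WT, which is near the 59.5% of all tested genes that showed the same. WT pool 2 was below WT pool 1 for 7 of the 9 genes, against 50.7% of all tested genes, and was the lowest of the 4 libraries for the same 7, against 30.7%. The exceptions were Pck2 and Glyctk, which were highest in WT pool 2. The median log2 difference, WT pool 2 minus WT pool 1, was -0.59 over the 9 genes and -0.0045 over all tested genes. It was -1.62 for Pck1, -0.93 for Slc37a4, -0.64 for Pcx and Khk, -0.59 for Fbp1, -0.39 for G6pc and -0.14 for Fbp2. Between the KO pools the 9 genes had a median of 0.06, and 4 of them were lower in KO pool 2, against 49.2% of all tested genes.

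Markers of cell types moved with the gap between the WT pools. All 10 proximal tubule markers were lower in WT pool 2 than in WT pool 1, with a median of -0.36, and between the groups 4 of the 10 had lower levels in both KO pools and 1, Slc22a6, higher levels, against 18.1% and 19.7% of all tested genes. Of the 4, Lrp2 and Slc5a2 had an unadjusted p under 0.05 (limma), against 6.32% of all tested genes. Their summed level was 2942 and 2225 FPKM in WT pools 1 and 2, and 1734.5 and 2470 FPKM in KO pools 1 and 2. The 4 markers of thick limb and distal tubule and the 4 of collecting duct were also all lower in WT pool 2, with medians of -0.65 and -0.56. All 5 macrophage markers were higher there, with a median of 1.18, and all 5 endothelial markers, with a median of 0.38. Of the 8 markers of injured tubule, 1 was lower in WT pool 2 and the median was 0.19, the 1 being Lcn2 at 133 and 95.2 FPKM in WT pools 1 and 2, and 249 and 273 FPKM in KO pools 1 and 2. Among the others, Havcr1 (kidney injury molecule 1) was 210 and 393 FPKM in WT pools 1 and 2, and 249 and 105 FPKM in KO pools 1 and 2. Between the groups, 4 of the 8, Krt8, Krt18, Krt20 and Lcn2, had higher levels in both KO pools and 1, Vcam1, lower levels, against 19.7% and 18.1% of all tested genes. Krt20 and Lcn2, with log2 fold changes of 0.73 and 1.21, and Vcam1, with -1.91, had an unadjusted p under 0.05 and no adjusted p under 0.05 (limma). In bulk tissue, fewer cells of a type and less RNA per cell cannot be told apart, and the part of these markers in the gap or in the differences between the groups was not tested. Relative to the summed proximal tubule markers, Pck1 was 60.2% and 25.9% in WT pools 1 and 2, and 122% and 64.5% in KO pools 1 and 2. By the same measure G6pc was 4.50% and 4.54% in WT pools 1 and 2, and 7.14% and 6.69% in KO pools 1 and 2. Fbp1 was 17.0% and 14.98% in WT pools 1 and 2, and 22.0% and 17.6% in KO pools 1 and 2. On this ratio the KO pools did not overlap the WT pools and were higher for 7 of the 9 genes, Pck1, G6pc, Fbp1, Fbp2, Pcx, Khk and Slc37a4, and lower for 0, against 29.6% and 2.24% of all tested genes. Some margins were narrow, as KO pool 2 exceeded WT pool 1 for Fbp1 by 17.6% against 17.0%. The ratio also rises where its denominator is low, as in KO pool 1, and it was given no test. That denominator weights the most abundant markers, Slc34a1, Slc27a2 and Miox, of which Slc34a1 and Miox were lower in both KO pools.

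**Figure D3:**
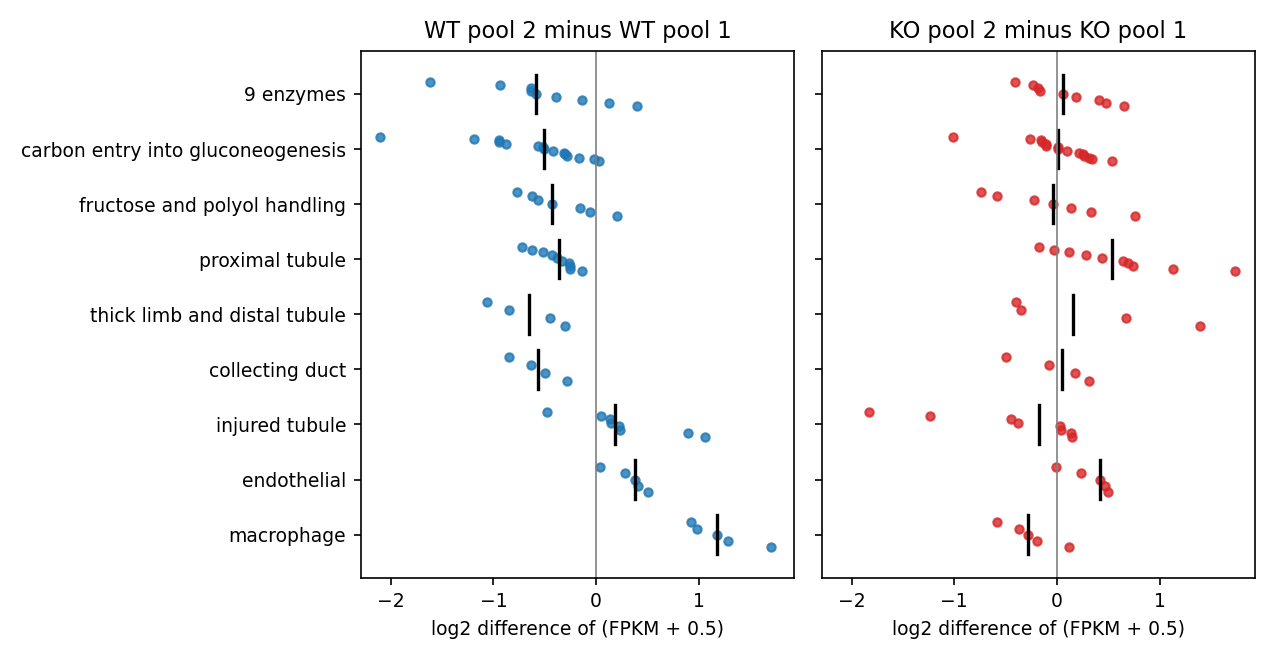
Replicate gaps, as the log2 difference of (FPKM + 0.5), within WT (pool 2 minus pool 1, left, blue) and within KO (right, red) for tested genes of each list, 1 point a gene, with black lines at the medians. The 9 enzymes had a median of -0.59 within WT and 0.06 within KO, and the macrophage markers 1.18 and -0.29.

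Markers of other tissues that express these enzymes were mostly low. Of the liver genes, Alb was 0.408 to 0.868 FPKM and Cps1 at most 0.0112 FPKM, whereas Ttr and Serpina1a were higher, at 24.3 to 50.8 and 7.08 to 27.9 FPKM. The summed level of 5 adipose markers was 1.43 and 0.312 FPKM in WT pools 1 and 2, and 8.27 and 3.19 FPKM in KO pools 1 and 2, nearly all of it from Cidec, a lipid droplet protein. Cidec was higher in both KO pools, with a log2 fold change of 2.12 (unadjusted p = 0.022, adjusted p = 0.785, limma). The part of adipose RNA in the level of Pck1, which adipose tissue also expresses, was not tested.

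Of 69 other genes of the pathway, grouped by role, 66 were tested, and 0 had an adjusted p under 0.05 (limma). At an unadjusted p under 0.05 there was 1 gene, against 6.32% of all tested genes. Log2 fold changes were above 0 for 40 of the 66, with a median of 0.14 against 0.0071 over all tested genes. Without WT pool 2 these were 37 of the 66 and a median of 0.05, and without WT pool 1 they were 49 and 0.25. The pools did not overlap for 22 genes with the KO pools higher and 13 with them lower, where 19.7% and 18.1% of all tested genes did so.

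Genes of carbon entry, which bring lactate, glutamine and glycerol to the route, numbered 15, with a median log2 fold change of 0.14. Without overlap, 4 of them were higher and 2 lower in KO, against 19.7% and 18.1% of all tested genes. Under quantile normalization the median was 0.01, and without WT pool 1 it was 0.35. Ldhb, a lactate dehydrogenase subunit and the most abundant of them, was 783 and 773 FPKM in WT pools 1 and 2, and 631 and 677 FPKM in KO pools 1 and 2, with a log2 fold change of -0.25 (adjusted p = 0.845, limma). Slc38a3, a glutamine transporter of the proximal tubule, was 38.6 and 8.61 FPKM in WT pools 1 and 2, and 40.5 and 48.5 FPKM in KO pools 1 and 2. Its log2 fold change of 1.25 (adjusted p = 0.798, limma) was 0.20 without WT pool 2 and 2.30 without WT pool 1. Of these 15 genes, 14 were lower in WT pool 2 than in WT pool 1.

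The 7 tested genes of fructose and polyol handling had a median log2 fold change of -0.15. Of them, 0 were higher and 3 lower in KO without overlap, against 19.7% and 18.1% of all tested genes. Their median was -0.05 without WT pool 1, -0.08 without KO pool 1 and -0.21 without KO pool 2. Slc5a9, a sodium-dependent sugar transporter, was 7.98 and 7.09 FPKM in WT pools 1 and 2, and 5.05 and 6.51 FPKM in KO pools 1 and 2 (log2 fold change -0.36, adjusted p = 0.797, limma). The glycerate, glyoxylate and serine enzymes had a median of 0.06 over 8 genes. Without overlap, 2 were higher and 2 lower in KO, against 19.7% and 18.1% of all tested genes. The median of this list changed sign, to -0.07 without WT pool 2 and -0.009 when scaled to reads on genes, and was 0.13 without WT pool 1. Grhpr, the glyoxylate and hydroxypyruvate reductase, was 146 and 93.8 FPKM in WT pools 1 and 2, and 154 and 146 FPKM in KO pools 1 and 2 (log2 fold change 0.35, adjusted p = 0.824, limma). Without WT pool 2 that of Grhpr was 0.04. Hao2, a peroxisomal hydroxyacid oxidase, was 61.7 and 59.2 FPKM in WT pools 1 and 2, and 42.1 and 52.4 FPKM in KO pools 1 and 2 (log2 fold change -0.36, adjusted p = 0.788, limma). The groups of Hao2 and Slc5a9 did not overlap, but neither gene passed the test, and without KO pool 1 the log2 fold changes were -0.20 and -0.19.

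The 7 genes of the steps shared with glycolysis had a median of 0.25, with 5 higher and 0 lower in KO without overlap, against 19.7% and 18.1% of all tested genes. Their median was 0.13 under quantile normalization and 0.17 without WT pool 2. Aldoa was 296 and 276 FPKM in WT pools 1 and 2, and 319 and 343 FPKM in KO pools 1 and 2 (log2 fold change 0.21, adjusted p = 0.840, limma). Gapdh was listed at 4.49 and 4.04 FPKM in WT pools 1 and 2, and 5.74 and 5.13 FPKM in KO pools 1 and 2 (log2 fold change 0.32, adjusted p = 0.786, limma), and these low values are uncertain. Of the 1321 windows of 100 bases in its longest coding transcript, 1031 also occur in transcripts of other genes, against 0 for each of the 9 enzymes. The 12 tested opposing glycolytic enzymes had a median of -0.03, and of 0.08 without WT pool 2. Without overlap, 3 of them were higher and 3 lower in KO, against 19.7% and 18.1% of all tested genes. Pkm, a pyruvate kinase, was 72.0 and 77.2 FPKM in WT pools 1 and 2, and 75.5 and 97.6 FPKM in KO pools 1 and 2 (log2 fold change 0.20, adjusted p = 0.853, limma). For Pkm this was 0.02 without KO pool 2 and 0.08 under quantile normalization. Hk3, a hexokinase of blood cells, was 0.980 and 2.73 FPKM in WT pools 1 and 2, and 0.763 and 0.786 FPKM in KO pools 1 and 2 (log2 fold change -0.78, adjusted p = 0.798, limma), and like the macrophage markers it was highest in WT pool 2. For Hk3 it was -0.22 without WT pool 2 and -1.34 without WT pool 1. G6pc3, the widely expressed paralog of G6pc, was 27.7 to 31.5 FPKM in all pools, with a log2 fold change of 0.10 (adjusted p = 0.890, limma) and of 0.02 without WT pool 2, and G6pc2 was under the filter.

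Among 16 regulators of gluconeogenic genes, 11 had a log2 fold change above 0, with a median of 0.15. Without overlap, 7 were higher and 3 lower in KO, against 19.7% and 18.1% of all tested genes. The median was 0.07 without WT pool 2, 0.04 without KO pool 1 and 0.22 without WT pool 1. Ppara, the nuclear receptor of the fasting and fatty acid response, was the 1 gene of the 66 with an unadjusted p under 0.05. It was 19.04 and 14.8 FPKM in WT pools 1 and 2, and 31.9 and 29.1 FPKM in KO pools 1 and 2, with a log2 fold change of 0.84 and a 95% confidence interval from 0.42 to 1.27. Its adjusted p was 0.650 (limma), so it did not pass the threshold over all genes, and leaving out 1 pool at a time gave a log2 fold change of 0.665 to 1.02. Pth1r, the parathyroid hormone receptor of the proximal tubule, was 250.1 and 204 FPKM in WT pools 1 and 2, and 199 and 209 FPKM in KO pools 1 and 2 (log2 fold change -0.15, adjusted p = 0.890, limma). For Pth1r it was -0.29 without WT pool 2 and 0.0019 without WT pool 1. Of the 16 regulators, 8 were lowest in WT pool 2, against 30.7% of all tested genes.

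**Figure D4:**
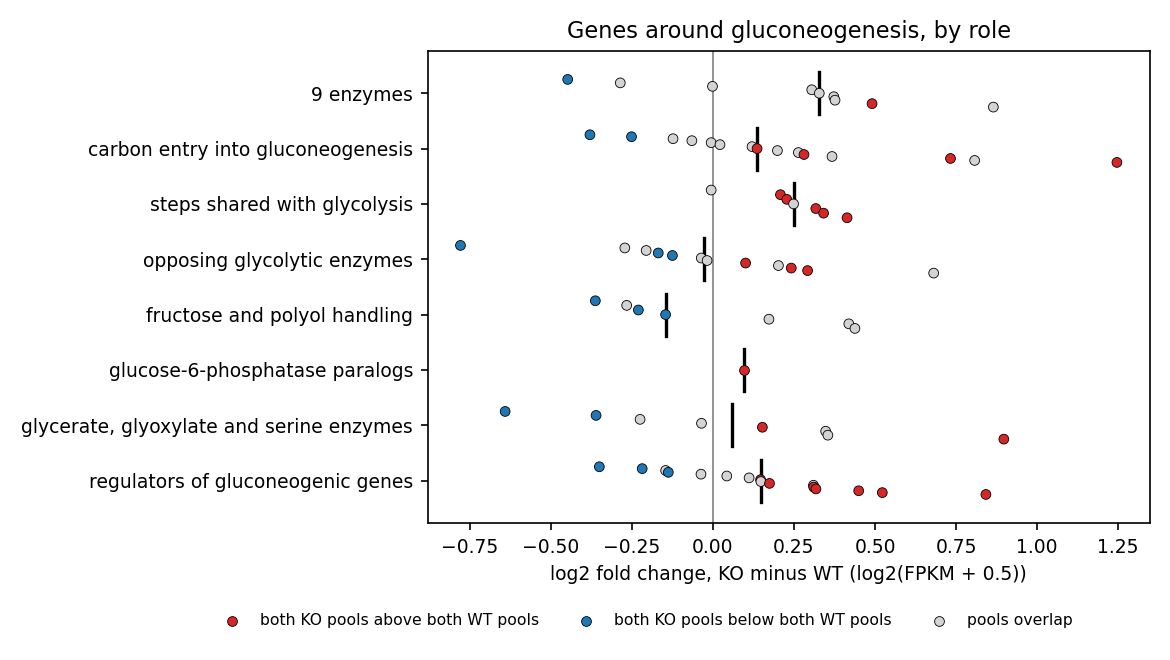
The log2 fold change, KO minus WT on log2(FPKM + 0.5), of the 9 enzymes and of the other tested genes of the pathway by role, 1 point a gene, with black lines at the medians. Red and blue points mark genes whose pools do not overlap, 1 of each colour among the 9 enzymes, and 0 genes passed an adjusted p of 0.05.

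The genes whose pattern was nearest to Pck1, G6pc, Fbp1 and Khk were sought among 5079 other genes with a mean of at least 10 FPKM. The measure was the root mean square distance over the 4 libraries of log2(FPKM + 0.5) centred on the gene's mean. Nearest to Khk was Pcx, at 0.0262, followed by the pseudogene Gm10053 at 0.0303 and Grhpr at 0.0304. Nearest to Pck1 were Cyp4a31 at 0.150, the pseudogene Glud-ps at 0.152 and Retsat, a retinol saturase, at 0.153. These distances were larger than those for the other 3 enzymes. Nearest to G6pc were Klf15, a glucocorticoid-induced transcription factor that was on the list of regulators, at 0.0417, the pseudogene Rps19-ps6 at 0.0445 and Ckmt1 at 0.0453. Nearest to Fbp1 were Lypla1 at 0.0171, Acot13 at 0.0254 and Ndufa1 at 0.0265. Klf15 had 34.04 and 25.1 FPKM in WT pools 1 and 2, and 32.7 and 40.5 FPKM in KO pools 1 and 2, the same order of pools as for G6pc. The distances rest on 4 libraries and are a description.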

How the data were processed

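The authors deposited 1 table of FPKM (fragments per unit of gene length, scaled per library) per gene and library. The total behind this scaling is not given in the sources used here. Recovered from the values, it was below the reads on genes in 3 libraries and above them in WT pool 2, so it is not the number of reads on genes. Per the labels, reads were aligned with HISAT2 2.0.5 to mm10 (GRCm38.p6); the counting tool and annotation are not given in the sources used here. Multiplying by gene length recovered whole reads for 100% of nonzero values (tolerance 0.01 of a read). Of 53620 genes shared with GENCODE M21, 97.1% had identical coordinates, including the 9 enzymes.

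Log2(FPKM + 0.5) was compared between KO and WT with limma 3.58.1 in R 4.3.3 (lmFit, eBayes with a trend, no covariates, two-sided) for genes with a mean of at least 0.5 FPKM, adjusted by Benjamini-Hochberg over 15414 genes. This scale understates changes of low genes. All 9 enzymes passed the filter. The threshold was an adjusted p under 0.05 with any fold change. The fit was tested on simulated data in which all genes had the same spread between pools apart from counting noise. That test does not show how the fit performs for genes with a wide spread, such as Pck1. The enzymes, gene lists and tests were chosen with earlier results of these data known. Named genes were the 9 enzymes, per role group the gene with the highest mean FPKM and that with the smallest unadjusted p, and the 3 nearest patterns of 4 enzymes. Of these, 1 pathway gene is not reported here. Where 2 rows carried the name Aldoa, the higher was used. Alternatives were pseudocounts of 0.1 and 1, no filter and a mean of at least 1 FPKM, quantile normalization, scaling to reads on genes, voom weights, no trend, a replicate block and each pool left out. Python 3.11.15 with pandas 2.3.3 was used for other steps.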

Additional observations from a re-analysis of the deposited data

How the results depend on the processing

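Of 117 alternative values for the 9 log2 fold changes, 114 kept their direction and their side of the threshold, and 3 changed direction. Fbp1 became 0.29 without WT pool 1 and 0.09 without KO pool 1, and Slc37a4 became -0.093 without WT pool 2, so that leaving out 1 pool changed the sign. With a pool left out, where the lone pool is assumed to vary like the others, Fbp1 ranged from -0.29 to 0.29, Slc37a4 from -0.093 to 0.84 and Pck1 from 0.05 to 1.68. Under the other alternatives no direction changed, but quantile normalization moved G6pc from 0.30 to 0.18, Khk from 0.38 to 0.24 and Fbp1 from -0.0014 to -0.09, while Pck1 ranged from 0.72 to 0.87. Adjusted p-values of the 9 genes (limma) lay between 0.302 and 1.00. For the 13 other pathway genes that the naming rule gave, 168 of 169 values kept their direction and side, the exception being Pth1r at 0.0019 without WT pool 1, and Slc38a3 ranged from 0.20 to 2.30 with a pool left out. The median of the 9 log2 fold changes, 0.33 with all pools, ranged from 0.0092 to 0.56 with a pool left out. The number of genes at an adjusted p under 0.05 was 0 in every alternative, with 685 to 1731 at an unadjusted p under 0.05. Scaling to reads on genes gave 345 higher and 581 lower genes at an unadjusted p, against 507 and 467 as deposited. In a count added after seeing the data, both KO pools were above the WT pools for 1 to 7 of the 9 genes and below them for 1 to 3 when a pool was left out, the 7 being without WT pool 1, against 1 and 1 with all pools. The shares of all tested genes without WT pool 1 were 37.7% and 35.9%. Also counted after seeing the data, 0 of the 9 genes had an unadjusted p under 0.05 with all pools, 0 to 5 with a pool left out (5 without WT pool 1, where 11.2% of all tested genes had one) and 1, Pck2, with voom weights.

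The pools share replicate numbers only: after subtracting the group means, same-numbered pools correlated at -0.0017 over 15414 genes, with 2 pairs. With the replicate block, 0 genes passed the threshold and 932 had an unadjusted p under 0.05. Between 432 and 765 reads per library lay behind Fbp2 and 458 to 871 behind Pck2, against 33935 to 121696 behind Pck1.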
